A study of Mus musculus with 9 samples.

Results

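Notch signalling was followed here through 10 genes in single cells of the mouse neocortex at E18.5, late in gestation. The genes were the receptors *Notch1* and *Notch2*, the ligands *Dll1*, *Dll3* and *Jag1*, the effectors *Hes1*, *Hes5* and *Hey1*, the effector antagonist *Hes6* and the glycosyltransferase *Mfng*. They were taken by name and make up 10 of the 17487 genes listed in any of the libraries, and 10 of a list of 50 Notch pathway genes whose other 40 members are given by counts. In this pathway a ligand on a cell binds a receptor on its neighbour, the receptor is cleaved, and its intracellular part joins the DNA-binding protein RBPJ to switch on *Hes* and *Hey* repressor genes. In the developing cortex the pathway is known for keeping radial glia, the stem cells of the cortical wall, from turning into neurons. Cells that begin to differentiate show ligands to their neighbours, and *Hes6*, which counteracts *Hes1*, rises as neurons form.

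The study compared wild-type (WT) and *Tcf4* knockout (KO) embryos, littermates from crosses of mice that lack 1 working copy of the gene on the Tcf4ex4WT/lacZ background. TCF4 is a basic helix-loop-helix transcription factor, and its gene carries in the KO embryos, on both chromosomes, a lacZ and neo cassette that leaves a short isoform in place. Each of the 9 libraries, 5 WT and 4 KO, came from the microdissected neocortex of 1 embryo and was made with 3′-end droplet chemistry that counts unique molecular identifiers (UMIs). The comparison between genotypes used the libraries that the study kept, WT replicates 2, 3 and 4 (WT2, WT3, WT4) and KO replicates 4 and 5 (KO4, KO5).

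Levels are UMIs per 10000 UMIs of a cell, averaged over the cells of a library, and a share of cells is the percentage with a UMI of the gene after each cell was thinned to 1800 UMIs. Over all kept cells *Tcf4* stood at 12.2 to 12.6 UMIs per 10000 in WT2, WT3 and WT4, at 9.29 in KO4 and at 7.59 in KO5. The library labelled WT5 was at 7.20, below KO4 and KO5, the library labelled WT1 was at 4.65 and the library labelled KO1 was at 16.7, so these labels are not borne out by *Tcf4*. The study left out 1 WT animal because its *Tcf4* was below that of the KO, which WT5 matches here. The *Tcf4* gap of the compared libraries was therefore partly set by that choice. Counts from the 3′ end do not set apart the short isoform that remains in the KO embryos. *Tcf4* is therefore a limited check of the labels. In radial glia or astrocytes *Tcf4* overlapped. It was at 8.06, 6.90 and 8.04 in WT2, WT3 and WT4 and at 7.50 and 6.71 in KO4 and KO5. It did not overlap in glutamatergic neurons or the cycling classes. The 5 compared libraries held 1184 to 6173 kept cells with median depths of 2217 to 4359 UMIs, and WT1, KO1 and KO2 held 118 to 331 cells. Blood-contaminated cells, over 1% haemoglobin UMIs, were excluded and made up 40.4% of the cells of KO5, 13.9% of those of KO4 and at most 1.34% in WT2, WT3 and WT4. KO5 held no *Xist* UMI and is male, whereas the other libraries are female.

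The start of the *Hes5* gene carries the RBPJ recognition letters that classical Notch targets are known for. It is shown beside a transcript start of each of the 2 receptor genes, which moved in opposite directions in radial glia or astrocytes and in cycling cells. Sequences are from RefSeq (GRCm38.p6), 250 bases ending at the base before the transcript start, on the strand of the gene, and capitals mark matches of GTGGGAA on either strand. *Hes5* lies at chr4:154960923-154962371 on the plus strand, *Notch1* at chr2:26457903-26516663 on the minus strand and *Notch2* at chr3:98013527-98150361 on the plus strand (GENCODE, GRCm38). The *Notch1* sequence precedes a RefSeq transcript start that lies inside these GENCODE bounds, not the outermost start of the gene.
Hes5, chr4:154960673-154960922, plus strand: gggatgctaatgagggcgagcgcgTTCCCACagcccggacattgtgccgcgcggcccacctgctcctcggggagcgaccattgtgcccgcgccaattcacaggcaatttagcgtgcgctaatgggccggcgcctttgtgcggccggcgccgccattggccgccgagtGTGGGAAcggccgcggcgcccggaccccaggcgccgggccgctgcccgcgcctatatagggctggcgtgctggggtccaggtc
Notch1, chr2:26503823-26504072, minus strand: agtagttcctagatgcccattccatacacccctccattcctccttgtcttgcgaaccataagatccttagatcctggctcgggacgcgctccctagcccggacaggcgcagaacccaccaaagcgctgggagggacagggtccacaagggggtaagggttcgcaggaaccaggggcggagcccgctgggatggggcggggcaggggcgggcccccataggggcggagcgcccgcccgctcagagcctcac
Notch2, chr3:98013288-98013537, plus strand: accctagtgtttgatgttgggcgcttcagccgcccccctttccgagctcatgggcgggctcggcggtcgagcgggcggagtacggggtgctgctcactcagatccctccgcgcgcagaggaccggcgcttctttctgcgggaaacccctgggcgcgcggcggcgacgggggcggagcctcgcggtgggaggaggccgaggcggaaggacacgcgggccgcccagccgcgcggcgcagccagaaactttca
The *Hes5* window held 2 matches, starting 226 and 83 bases before the start, and they lie on opposite strands. Of 32851 mouse promoters of that length 5.42% held at least 1 match and 0.161% held 2 or more. Promoter entries were matched for 7 of the 10 genes, 9 promoters in all, and none of the others held the letters. The E-box CANNTG, the letters that helix-loop-helix proteins bind and that 66.2% of all promoters held at least once, occurred in the windows of *Hes5*, *Hes6*, *Jag1*, *Dll1* and *Dll3* and in neither receptor window. *Hes1*, *Hey1* and *Mfng* were matched to no entry.

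To see which cells carried the pathway, cells were sorted into 12 classes by marker genes, and WT2, WT3 and WT4 were read together. Radial glia or astrocytes, 462 cells gated on *Slc1a3*, *Fabp7*, *Sox9* and 5 further genes, held the highest levels of *Hes5* and *Notch2*. With these libraries pooled, vessel cells led for *Notch1*, *Hes1*, *Hey1*, *Jag1* and *Mfng*, intermediate progenitors led for *Hes6*, and the small oligodendrocyte lineage class led for *Dll1* and *Dll3*. Endothelial cells numbered 14, 11 and 26 per library, and not every lead held within them. Glutamatergic neurons, the largest class with 4563 cells, were below radial glia or astrocytes for all 10 genes in the pooled values, but in WT2 *Hes6* (1.70 against 1.56) and *Dll3* (0.0807 against 0) had the other order. Genes not used in the gates bore out the names of most classes, with *Mt3* 12.2 times and *Vim* 6.27 times higher in radial glia or astrocytes than in other cells, and did so weakly for the newborn neurons, which are not described further, and for *Bcl11b* in glutamatergic neurons (0.617 times). The oligodendrocyte lineage class is read in WT only, since in KO4 and KO5 together it held 1 cell.

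Among the receptors, *Notch1* was at 1.33 UMIs per 10000 in 51 endothelial cells and at 1.16 in radial glia or astrocytes, against 0.0447 in glutamatergic neurons. Its level in the cycling cells was 0.881 where they carried a UMI of a *Dlx* or *Gsx2* gene (cycling Dlx-positive, 535 cells, a ventral lineage) and 0.851 where they did not (cycling Dlx-negative, 400 cells). *Notch1* in endothelial cells was at 2.08, 0.729 and 1.17 in WT2, WT3 and WT4, above the radial glia or astrocytes in WT2 only. *Notch2* stood at 1.3 in radial glia or astrocytes, at 0.771 in cycling Dlx-negative cells and at 0.250 in cycling Dlx-positive cells. Per library in the radial glia or astrocytes *Notch1* ranged from 0.815 to 1.26 and *Notch2* from 0.969 to 2.37, so the order of the receptors in that class does not exceed the spread between libraries, and levels of different genes are not comparable per length in a 3′-end assay.

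The ligands were sparse. *Dll1*, a ligand of newly committed progenitors, was at 0.529 in 44 cells of the oligodendrocyte lineage and between 0.165 and 0.289 in the cycling classes, intermediate progenitors and radial glia or astrocytes. *Dll3*, a divergent family member that does not activate receptors on neighbouring cells, reached 2.15 in the oligodendrocyte lineage, where 34.1% of cells held a UMI (95% Wilson interval 21.9% to 48.9%). That class rests on WT4, whose 39 cells gave all 47 UMIs of *Dll3*, all 12 of *Dll1* and all 49 of *Hes5*, while the 2 cells of WT2 and 3 of WT3 held none. The next class for *Dll3* was the Cajal-Retzius cells at 0.351, and no UMI was counted in endothelial cells, mural cells or microglia. *Jag1* was at 1.03 in 24 mural cells and at 0.886 in endothelial cells, and at 0.278 in radial glia or astrocytes. Vessel cells and the oligodendrocyte lineage thus held the highest ligand levels, in classes of 51 cells or fewer.

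The effectors were separated by cell type. *Hes5* stood at 6.06 in radial glia or astrocytes, with a UMI in 47.8% of cells, at 2.52 in the oligodendrocyte lineage and at 1.70 in cycling Dlx-negative cells. In endothelial cells, which are not known to use *Hes5*, 1 UMI was counted in 51 cells and was lost on thinning, and in glutamatergic neurons 2.41% of thinned cells held one. *Hes1* was highest in mural cells at 3.15 and endothelial cells at 2.39, with 0.925 in radial glia or astrocytes and 0.871 in cycling Dlx-negative cells. *Hey1*, an effector of vessel cells as well as of neural progenitors, was at 1.18 in endothelial cells and at 0.659 in radial glia or astrocytes, but in WT4 the endothelial cells were the lower, at 0.506 against 0.653.

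*Hes6* was the gene present in the most cells. It was at 3.84 in 236 intermediate progenitors, the dividing daughters of radial glia, with a UMI in 46.6% of them, at 2.38 in both cycling classes and at 1.56 in glutamatergic neurons, and its lowest level was 0.415 in endothelial cells. *Mfng*, an enzyme that adds sugar to the receptors' extracellular part, was at 1.53 in endothelial cells and at 1.51 in intermediate progenitors, against 0.664 and 0.505 in the cycling classes. In the individual libraries the intermediate progenitors held 3.69, 3.87 and 3.86 of *Hes6* and 1.52, 1.82 and 1.29 of *Mfng* in WT2, WT3 and WT4, where endothelial cells held 1.79, 1.42 and 1.44 of *Mfng*.

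**Figure D1:**
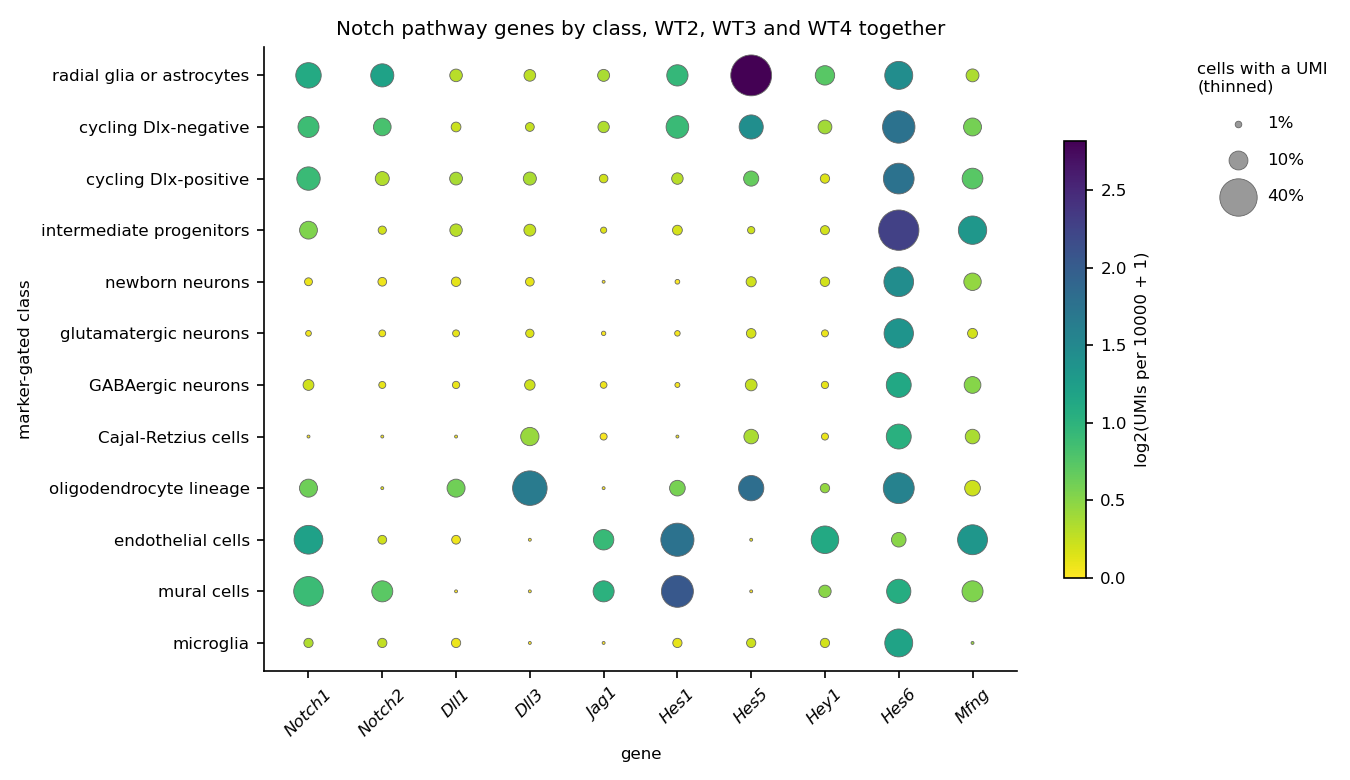
Each circle is a gene (x axis) in a marker-gated class (y axis) over WT2, WT3 and WT4 together; colour gives log2(UMIs per 10000 + 1) and area the percentage of thinned cells with a UMI. *Hes5* is largest in radial glia or astrocytes (47.8% of cells), *Hes6* in intermediate progenitors (46.6%) and *Dll3* in the oligodendrocyte lineage (34.1%).

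The pattern of each gene over the 12 classes was set beside that of 3388 genes by Pearson correlation of the log2 levels, a description over 12 points that share libraries and depth. *Notch1* was most like *Vim* (r = 0.967) and *Nes* (r = 0.963), which encode intermediate filaments of radial glia and vessel cells. *Notch2* was most like *Mfge8* (r = 0.977) and *Vcam1* (r = 0.974), and *Hes5* most like *Ttyh1* (r = 0.976) and *Asrgl1* (r = 0.962), where *Mfge8* and *Ttyh1* belong to the gate of that class. *Dll3* followed *C1ql1* (r = 0.980), known from oligodendrocyte precursors, and *Lnx1* (r = 0.976). *Jag1* was closest to *Sike1* (r = 0.985) and *Serpinh1* (r = 0.984), *Hes1* to *Sept2* (r = 0.976) and *Ppic* (r = 0.974), and *Hey1* to *Slc39a1* (r = 0.961) and *Gja1* (r = 0.939). Likeness was lower for *Dll1*, with *Sox6* and *Fip1l1* (r = 0.921 for each), for *Hes6*, with *Cpsf6* (r = 0.895) and *Mdk* (r = 0.891), and for *Mfng*, with *Hbp1* (r = 0.851) and *Arhgef2* (r = 0.828). Among pairs of the 10 genes, *Jag1* and *Hes1* were the most alike (r = 0.960) and *Hey1* and *Hes6* the least (r = -0.450).

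Cells with a receptor UMI outnumbered cells with a ligand UMI in radial glia or astrocytes and in cycling cells. In radial glia or astrocytes of WT2, WT3 and WT4, 27.9% of cells held *Notch1* or *Notch2* without a ligand, 8.44% held *Dll1*, *Dll3* or *Jag1* without a receptor, and 2.60% held both. In cycling Dlx-negative cells 74 of 400 cells held a receptor only, 6.50% held a ligand only and 1.5% held both, and in intermediate progenitors the shares were 10.2%, 8.05% and 0.424%. Ligands prevailed in the oligodendrocyte lineage, with 34.1% ligand-only against 2.27% receptor-only cells, whereas glutamatergic neurons held 3.07% ligand-only and 1.67% receptor-only cells, an order that WT3 did not share, at 1.80% and 1.91%.

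The next comparison asks how the pathway differs between genotypes over all cells. Of the 10 genes, *Notch2* was called, higher in KO4 and KO5, and the other 9 were not, where 1.15% of the 8554 genes tested were called. *Notch2* stood at 0.177, 0.334 and 0.133 UMIs per 10000 in WT2, WT3 and WT4 and at 0.986 and 0.942 in KO4 and KO5. Every KO value lay above every WT value, with a ratio of means of 4.49 and a change of 0.70 ± 0.07 (SE) on the log2(level + 1) scale (limma, adjusted p = 0.00755). The libraries outside the comparison were also high whatever their label, at 0.759 in WT5, 3.01 in WT1, 0.832 in KO1 and 3.52 in KO2. With WT5 counted as labelled the change was 0.56, no gene of the 8601 tested was called, and 192 genes had an unadjusted p under 0.05. Leaving out WT2, KO4 or KO5 also ended the call, with adjusted p of 0.0691, 0.0682 and 0.0571.

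*Jag1* was the other gene with higher values in KO4 and KO5. It was at 0.0872, 0.0973 and 0.0671 in WT2, WT3 and WT4 against 0.201 and 0.178 in KO4 and KO5 (log2 change 0.13 ± 0.02, adjusted p = 0.0544). *Jag1* passed the filter, a level of 0.1 in at least 2 libraries, only through KO4 and KO5. Its p is thus no support in itself. WT5 was at 0.202 and WT1 at 0.675, so the WT-labelled libraries overlapped the KO range once these were counted. *Notch1* was at 0.272, 0.193 and 0.241 against 0.171 and 0.146 (log2 change -0.09 ± 0.04, adjusted p = 0.178). *Hes5* was at 0.572, 0.370 and 0.627 against 0.361 and 0.355 (log2 change -0.16 ± 0.08, adjusted p = 0.218). For both genes KO4 and KO5 were below every compared WT library, by less than the test could call. The libraries outside the comparison did not follow this order. *Notch1* was at 0.749 in KO1 and 0.491 in KO2, above every WT library, and at 0.241 in WT1 and 0.105 in WT5. *Hes5* was at 0.0624 in KO1, 0.878 in KO2, 0.607 in WT1 and 0.271 in WT5. In bulk levels of this kind fewer cells of a type and less RNA per cell cannot be told apart.

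*Hes6* stood at 1.83, 2.22 and 1.5 against 1.23 and 1.29, and *Mfng* at 0.336, 0.446 and 0.268 against 0.185 and 0.200, with adjusted p of 0.164 and 0.163. *Dll1* was at 0.124, 0.147 and 0.110 against 0.0832 and 0.0804, and *Hey1* at 0.122, 0.147 and 0.116 against 0.0830 and 0.111. These 4 genes were lower in both KO libraries than in any of WT2, WT3 and WT4, and none passed the test. Lack of overlap was common in these libraries, at 49.9% of all genes tested for shares of cells. That figure was not computed for levels. *Dll3*, at 0.0811, 0.0480 and 0.194 against 0.127 and 0.106, and *Hes1*, at 0.443, 0.122 and 0.133 against 0.221 and 0.255, overlapped. The median log2 change of the 10 genes was -0.05, as was that of all genes tested. Of the 40 other pathway genes 26 were tested and 0 were called by limma, with 10 at an unadjusted p under 0.05.

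**Figure D2:**
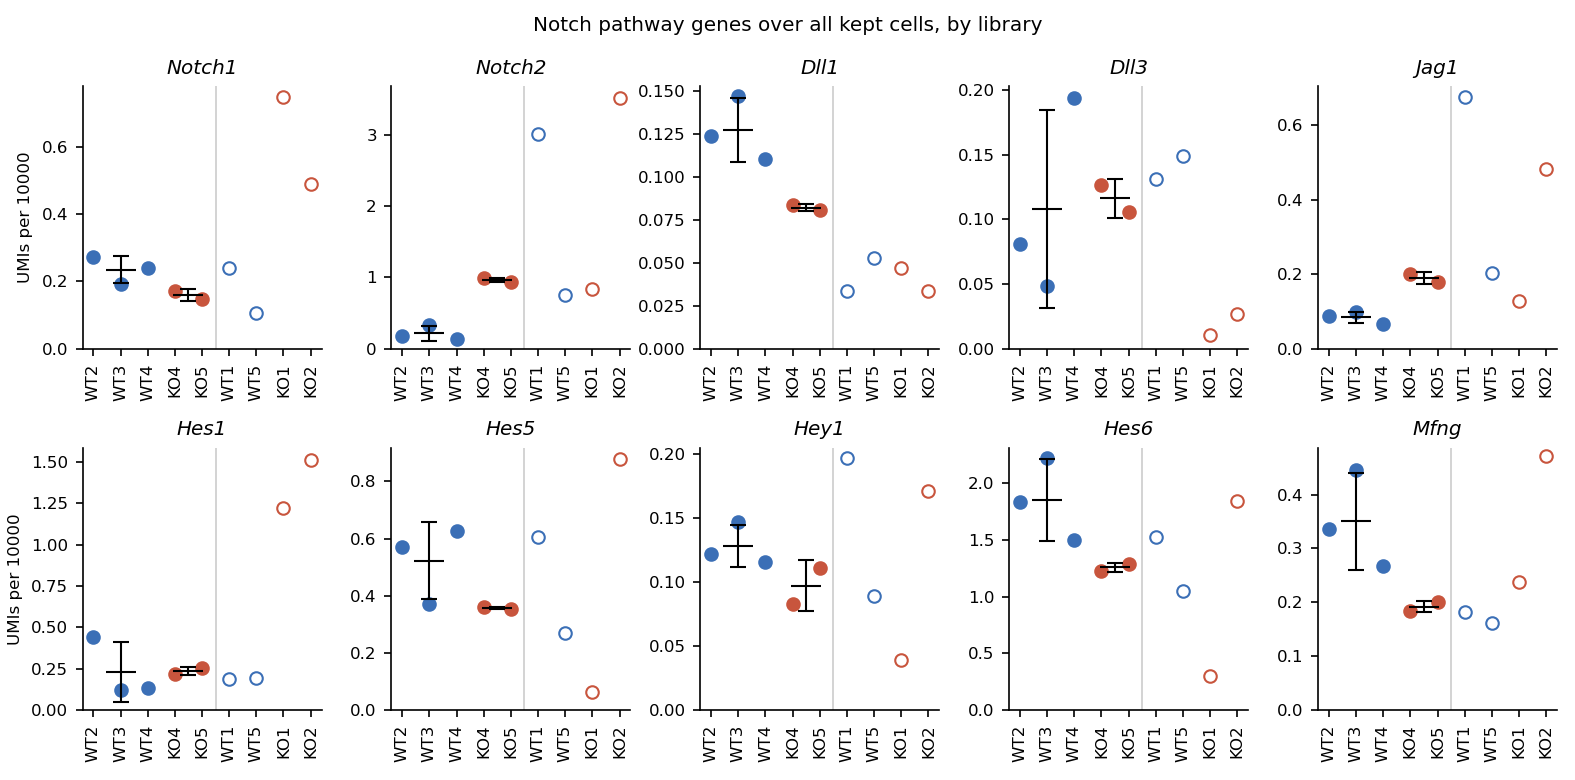
UMIs per 10000 (y axis, from 0) of the 10 genes over all kept cells of each library (x axis); filled points are the compared libraries, open points the others, blue WT and red KO by label, and bars give the mean ± SD of the compared libraries. *Notch2* lies between 0.133 and 0.334 in WT2, WT3 and WT4 and at 0.759 or above in the other 6 libraries.

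The radial glia or astrocytes are where the pathway is known to act, and there 5 of the 9 genes tested were called, against 8.17% of the 9252 genes tested. *Hes5*, *Notch1*, *Hey1* and *Hes1* were lower in KO4 and KO5, and *Notch2* was higher. The class held 69, 81 and 312 cells in WT2, WT3 and WT4 against 129 and 80 in KO4 and KO5. The median log2 change was -0.25 over the 9 genes and -0.05 over all genes.

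*Hes5*, a direct Notch target in radial glia, stood at 5.32, 3.97 and 6.77 UMIs per 10000 in WT2, WT3 and WT4 and at 1.43 and 0.918 in KO4 and KO5. The means differed 4.55-fold with no overlap (log2 change -1.53 ± 0.18, limma, adjusted p = 4.55e-07), and the counts behind them were 103, 143 and 1006 UMIs against 48 and 19. Cells with a *Hes5* UMI were 49.3%, 39.5% and 49.7% of thinned cells against 17.1% and 16.2%. The library labelled WT5 was with the KO libraries, at 0.778 over 66 cells, and the library labelled KO1 was at 0.177 over 36 cells.

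*Notch1* was at 0.815, 1.26 and 1.21 in WT2, WT3 and WT4 and at 0.491 and 0.217 in KO4 and KO5, which rest on 16 and 4 UMIs (log2 change -0.63 ± 0.15, adjusted p = 0.00552). *Hey1* was at 0.407, 0.897 and 0.653 against 0.199 and 0.124, from 6 and 3 UMIs in the KO libraries (log2 change -0.50 ± 0.13, adjusted p = 0.0138). *Hes1* was at 1.54, 0.743 and 0.835 against 0.557 and 0.309 (log2 change -0.49 ± 0.16, adjusted p = 0.0443). All 3 were lower in both KO libraries than in any compared WT library. Outside the comparison *Notch1* and *Hes1* did not follow the labels. In the library labelled KO1, over 36 cells, they were at 1.81 and 2.49, above every compared WT library. In the library labelled WT5 they were at 0.2995 and 0.175. *Hey1* was at 0.212 in KO1, from 2 UMIs, and no UMI of it was counted in WT5. Each call was lost when KO5 was left out, with changes of -0.48 for *Notch1*, -0.45 for *Hey1* and -0.37 for *Hes1*, while *Hes5* stayed called without any of the 5 libraries. That of *Hey1* was also lost without WT3 (-0.39), and that of *Hes1* without WT2 (-0.33) or WT4 (-0.56), with the count tools, and with a gate of 4 markers (-0.19).

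*Notch2* moved the other way, from 1.51, 2.37 and 0.969 to 3.56 and 3.36 (log2 change 0.80 ± 0.18, adjusted p = 0.00404). Cells with a *Notch2* UMI made up 14.5%, 22.2% and 13.5% of the thinned cells of WT2, WT3 and WT4 against 33.3% and 37.5% of those of KO4 and KO5. WT5 was at 2.99 and KO1 at 2.40, so the library labelled WT5 was again closer to the KO libraries. Without cells that also carried the markers of a second class the change was 0.66 and was not called. With WT5 added as labelled, 0 of the 9533 genes tested were called in this class, *Hes5* and *Notch2* included, and 678 had an unadjusted p under 0.05.

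The remaining genes of the list did not pass the test in this class. *Dll1* was at 0.281, 0.219 and 0.230 against 0.140 and 0.0657, from 5 and 1 UMIs in KO4 and KO5 (log2 change -0.17 ± 0.09, adjusted p = 0.249). *Jag1* was at 0.344, 0.466 and 0.215 against 0.239 and 0.373, *Hes6* at 1.56, 2.23 and 1.63 against 1.39 and 1.32, and *Mfng* at 0.193, 0.371 and 0.262 against 0.194 and 0.310. *Dll3* was too low to be tested. Of 30 other pathway genes tested, 3 were called, all lower in KO4 and KO5, a share close to the 8.17% of all genes. They were *Nrarp*, a Notch target that feeds back on the receptor, at 0.866, 0.791 and 1.48 against 0.471 and 0.440 (log2 change -0.48, adjusted p = 0.0444); *Notch3*, at 0.532, 0.262 and 0.297 against 0.103 and 0.0505 (-0.34, adjusted p = 0.0420); and *Snw1*, a cofactor of the nuclear complex, at 2.0, 1.72 and 1.12 against 0.832 and 0.790 (-0.52, adjusted p = 0.0437).

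The class itself was not alike between the libraries. The 13 genes used to gate and check radial glia or astrocytes summed to 238 to 303 UMIs per 10000 in this class in WT2, WT3 and WT4, to 97.2 in KO4, 80.2 in KO5 and 59.7 in WT5, and 12 of the 13 were lower in both KO libraries than in any compared WT library. The 13 glutamatergic markers summed there to 7.6 to 9.9 in WT2, WT3 and WT4, 21.6 in KO4, 21.7 in KO5 and 26.2 in WT5. Per 100 UMIs of the 13 radial glia or astrocyte markers, *Hes5* was at 2.07, 1.31 and 2.85 in WT2, WT3 and WT4 and at 1.48 and 1.14 in KO4 and KO5, which overlap (exact permutation test, two-sided, p = 0.3, where 0.1 is the smallest p that 3 against 2 libraries allow). On that scale *Notch1* and *Hey1* also overlapped, and *Hes1* changed sign, to 0.26 on the log2 scale. *Notch2* did not overlap, at 0.588, 0.783 and 0.407 against 3.67 and 4.19. Nor did 3 genes without a call, each like *Notch2* higher in both KO libraries with p = 0.1 in the exact permutation test: *Jag1* with 1.5, *Hes6* with 1.18 and *Mfng* with 1.51 on the log2 scale. Being higher on this scale was thus not particular to *Notch2*. Nor did it follow the labels outside the comparison. The library labelled WT5 held 2.99 of *Notch2* at its marker sum of 59.7, which puts it with KO4 and KO5. The library labelled KO1 had a marker sum of 280, so its *Notch2*, given above, was nearer the compared WT libraries on this scale. *Fabp7*, itself known to respond to Notch, gave 156 of the 257 UMIs in WT2, so the scale is not independent of the pathway.

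**Figure D3:**
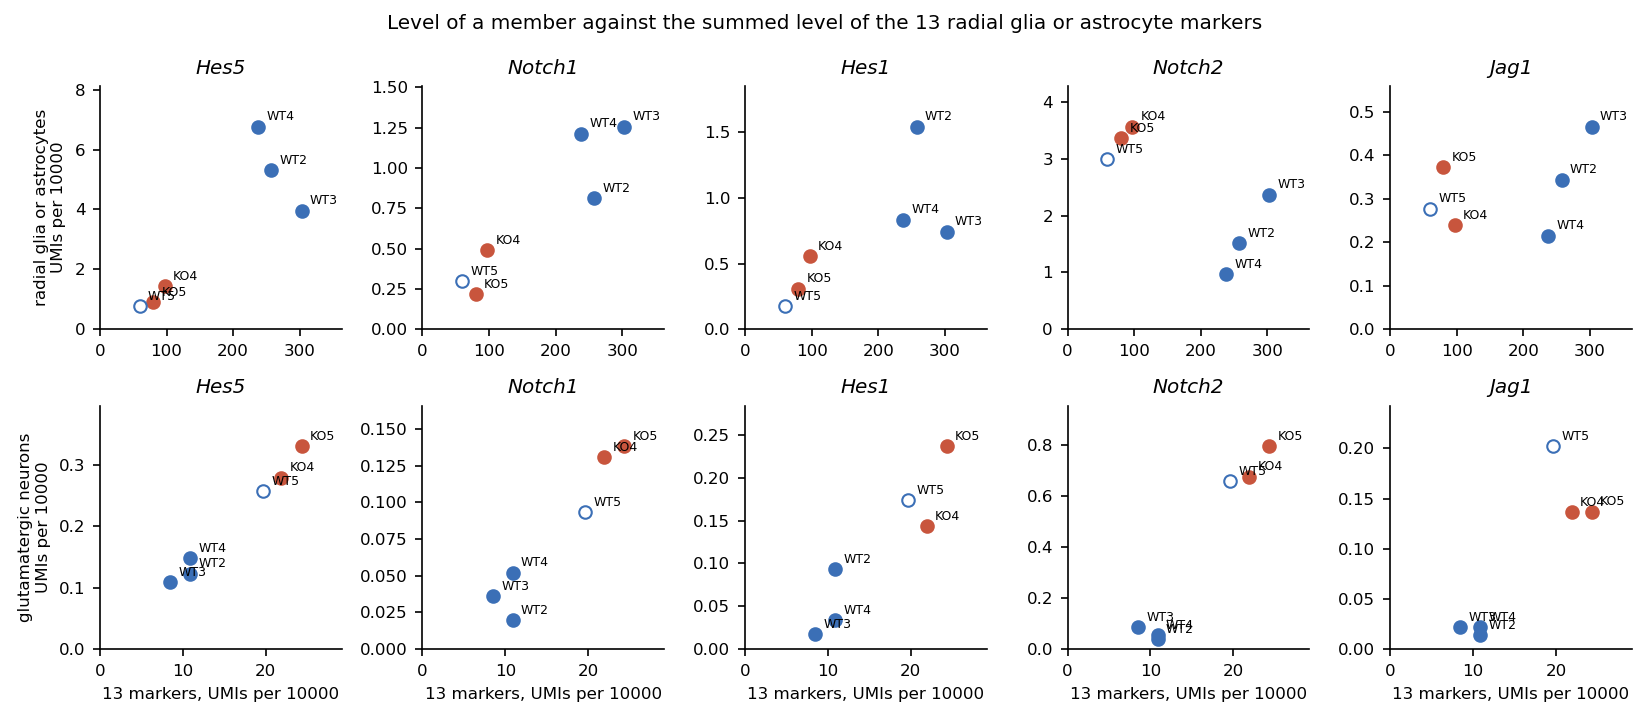
The level of 5 genes (y axes, UMIs per 10000) against the summed level of the 13 radial glia or astrocyte markers (x axes, UMIs per 10000) in radial glia or astrocytes (top) and glutamatergic neurons (bottom); points are libraries, blue WT and red KO by label, with WT5 open. In the top row KO4, KO5 and WT5 lie at marker sums of 59.7 to 97.2, left of WT2, WT3 and WT4 at 238 to 303.

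Cycling cells without *Dlx* or *Gsx2* UMIs showed the same 2 receptors moving in opposite directions. The cycling gate takes dividing cells of any class, and 1 UMI decides the split, so this class also depends on depth. WT4 held 198 such cells to 372 Dlx-positive ones, or 157 to 214 with the gate on thinned cells. KO4 held 233 to 73, or 146 to 28 with the gate on thinned cells. There 3 of the 9 genes tested were called, *Notch2* higher and *Notch1* and *Hes5* lower in KO4 and KO5, against 7.36% of 8999 genes. *Notch2* was at 0.400, 1.32 and 0.627 in WT2, WT3 and WT4 and at 3.04 and 2.31 in KO4 and KO5 (log2 change 1.07 ± 0.17, adjusted p = 3.43e-05). All compared WT values were below the KO values and WT5, at 1.81 over 69 cells, lay between them. *Hes5* was at 1.57, 1.2 and 2.04 against 0.876 and 0.520 (log2 change -0.61 ± 0.15, adjusted p = 0.00571). *Notch1* was at 0.986, 0.490 and 0.994 against 0.430 and 0.296 (log2 change -0.41 ± 0.13, adjusted p = 0.0387). Outside the comparison *Notch1* did not follow the labels, at 1.25 in KO1, 0.635 in KO2 and 0.0944 in WT5. *Hes5* was at 0.0803 in KO1, 1.39 in KO2 and 0.549 in WT5.

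The call of *Notch2* was lost only where WT5 was added as labelled, among the alternatives run as a fit, and those of *Hes5* and *Notch1* were lost with edgeR and DESeq2 on the recovered UMIs. Without KO5 the change of *Hes5* was -0.46 and was not called, and the call of *Notch1* was lost without WT2 (-0.34), WT4 (-0.34), KO4 (-0.48) or KO5 (-0.34). In this class *Jag1* was at 0.247, 0.340 and 0.222 against 0.541 and 0.433 (adjusted p = 0.18), *Hes1* at 1.62, 0.571 and 0.700 against 0.604 and 0.363 (adjusted p = 0.225) and *Hey1* at 0.391, 0.250 and 0.301 against 0.121 and 0.120 (adjusted p = 0.104). *Hes6* was at 2.51, 2.99 and 1.97 against 1.69 and 1.42 (adjusted p = 0.0812) and *Mfng* at 0.441, 0.695 and 0.427 against 0.245 and 0.184 (adjusted p = 0.0606). *Dll1* was at 0.116, 0.173 and 0.183 against 0.177 and 0.0588, and *Dll3* was not tested. Of 27 other pathway genes tested 1 was called, *Rbpj*, the DNA-binding partner of the cleaved receptor, at 0.623, 0.786 and 0.483 against 0.275 and 0.102 (log2 change -0.46, adjusted p = 0.00737). Marker levels moved here too: the 13 radial glia or astrocyte markers summed to 90.4 to 109 in WT2, WT3 and WT4 against 64.1 and 49.2, and 9 of the 13 glutamatergic markers were higher in both KO libraries. The 11 cycling markers summed to 81.3, 92.8 and 57.3 in WT2, WT3 and WT4, to 34.7 in KO4, 31.6 in KO5 and 21.6 in WT5. Their part in these results was not tested beyond the marker scale, on which *Notch2* kept apart and *Hes5* and *Notch1* overlapped. *Jag1* (1.65 on the log2 scale) and *Mfng* (-0.48), which were not called, kept apart on it too.

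In cycling Dlx-positive cells *Notch1* was lower and *Notch2* higher in KO4 and KO5, and these 2 of the 9 genes tested were called, against 8.80% of 8908 genes. *Notch1* stood at 0.942, 0.497 and 0.962 in WT2, WT3 and WT4, at 0.356 in KO4 and at 0 in KO5, where 0 of 28 cells held a UMI, which allows a share of up to 10.7% (log2 change -0.62 ± 0.16, adjusted p = 0.0165). *Notch2* was at 0.161, 0.563 and 0.191 against 1.3 and 0.750, the last from 7 UMIs (log2 change 0.63 ± 0.16, adjusted p = 0.0149). Both calls were lost with DESeq2 on the recovered UMIs, that of *Notch1* without WT4 (-0.55) or KO5 (-0.40), and that of *Notch2* without WT2 (0.56), WT4 (0.58) or KO4 (0.44). *Hes5* was at 0.280, 0.0971 and 0.767 against 0.290 and 0.411, *Hes6* at 1.74, 3.06 and 2.33 against 1.66 and 2.66, and *Mfng* at 0.853, 0.695 and 0.619 against 0.396 and 0.587. *Dll1*, *Dll3*, *Jag1* and *Hes1* stayed at or below 0.487 in each compared library and were not called, and *Hey1* was too low to be tested. Of 31 other pathway genes tested 1 was called, *Furin*, a protease that matures the receptors, at 0.0362, 0.0183 and 0.0455 against 0.309 and 0.200 (log2 change 0.28, adjusted p = 0.0312), which passed the filter only through KO4 and KO5. In these cells 12 of the 13 glutamatergic markers were higher in both KO libraries, the 11 cycling markers fell from 102, 94.2 and 83.4 to 36.1 and 25.1 (28.9 in WT5), and their part in these results was not tested.

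In glutamatergic neurons, where the pathway is low in WT, 4 of the 8 genes tested were called and all 4 were higher in KO4 and KO5: *Notch2*, *Jag1*, *Hes5* and *Notch1*. The share called over all 8313 genes was 3.13%. *Notch2*, *Jag1*, *Notch1* and the uncalled *Hes1* passed the filter, a level of 0.1 in at least 2 libraries, only through KO4 and KO5, so the count is no support in itself. With no filter *Notch2* and *Jag1* were still called. *Notch2* rose from 0.0399, 0.0851 and 0.0547 in WT2, WT3 and WT4 to 0.676 and 0.794 in KO4 and KO5, 12.3 times by the means (log2 change 0.71 ± 0.05, adjusted p = 0.000518). It was found in 0.659%, 1.46% and 1.08% of thinned cells against 10.7% and 13.4%. The library labelled WT5 was at 0.657 with 10.4% of cells, next to the KO libraries, and the library labelled KO1 was at 0.118 over 88 cells.

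*Jag1* was at 0.0138, 0.0219 and 0.0221 against 0.136 and 0.137 (log2 change 0.16 ± 0.02, adjusted p = 0.00474), and the library labelled WT5 was higher still at 0.202. *Hes5* was at 0.123, 0.110 and 0.148 against 0.279 and 0.330 (log2 change 0.21 ± 0.03, adjusted p = 0.015), opposite to its direction in the radial glia or astrocytes. *Notch1*, at 0.0199, 0.0360 and 0.0522 against 0.131 and 0.138, was also higher here (log2 change 0.13 ± 0.02, adjusted p = 0.0192). These changes are small on the log2(level + 1) scale because the levels are far below 1. The call of *Hes5* was lost without WT2 (0.21), KO4 (0.24) or KO5 (0.18), that of *Notch1* without WT2 (0.12), and without KO4 or KO5 the other 3 genes fell under the filter. All 4 calls were lost when WT5 was added as labelled, where 0 of 8391 genes were called and 330 had an unadjusted p under 0.05.

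*Hes1* was at 0.0931, 0.0178 and 0.0335 against 0.143 and 0.236 (adjusted p = 0.0551), *Hes6* at 1.70, 1.97 and 1.41 against 1.17 and 1.25 (adjusted p = 0.149), *Dll3* at 0.0807, 0.0405 and 0.136 against 0.112 and 0.122, and *Mfng* at 0.173, 0.191 and 0.121 against 0.155 and 0.196. *Dll1* and *Hey1* were too low to be tested. Of 24 other pathway genes tested 1 was called, *Maml2*, a coactivator of the cleaved receptor, at 0.0117, 0.0352 and 0.0419 against 0.113 and 0.159 (log2 change 0.14, adjusted p = 0.0227), and it too passed the filter only through KO4 and KO5. Radial glia or astrocyte markers were higher in these neurons as well, at 8.5 to 10.9 UMIs per 10000 for the 13 together in WT2, WT3 and WT4 against 21.9 in KO4, 24.3 in KO5 and 19.6 in WT5, and 12 of the 13 were above every compared WT library in both KO libraries. Per 100 UMIs of those markers *Hes5* stood at 1.13, 1.29 and 1.36 against 1.28 and 1.36, with no separation (exact permutation test, two-sided, p = 0.9), whereas *Notch2*, at 0.367, 1.0 and 0.503 against 3.09 and 3.27, and *Jag1*, at 0.127, 0.258 and 0.204 against 0.623 and 0.563, remained above (p = 0.1 for each, the smallest possible). *Mfng* and *Hes6* were lower in both KO libraries on this scale, at -1.12 and -1.72 on the log2 scale. *Notch1* was higher in both (0.69), and *Dll1* (-0.98) and *Hey1* (-0.40) were lower in both. For *Notch2* the scale did not follow the labels outside the comparison. The library labelled WT5 held 0.657 at its marker sum of 19.6, with KO4 and KO5. The library labelled KO1 had a marker sum of 20.1, so its *Notch2*, given above, was with the compared WT libraries.

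**Figure D4:**
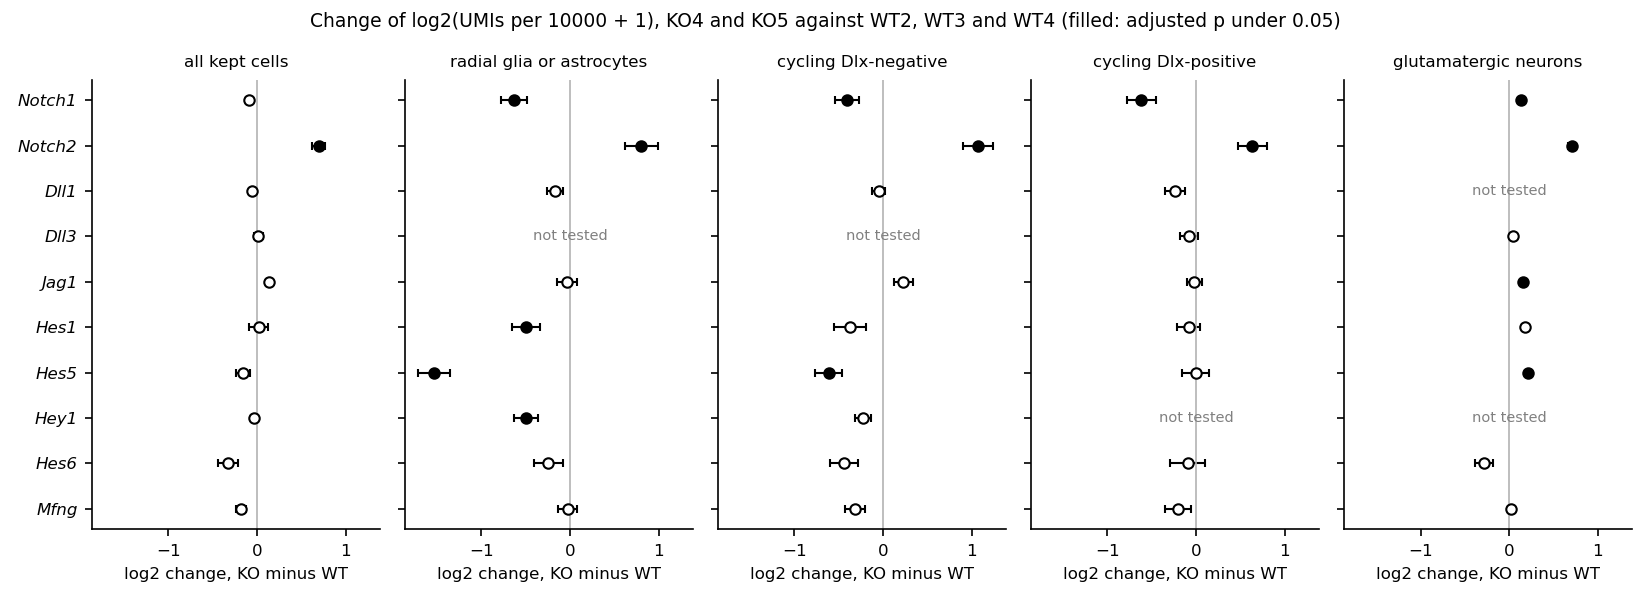
Change of log2(UMIs per 10000 + 1) from WT2, WT3 and WT4 to KO4 and KO5 (x axes) for the 10 genes (y axis) over all kept cells and in 4 classes; points are limma estimates, bars their SE, and filled points have an adjusted p under 0.05. *Notch2* is to the right of 0 in every panel, and *Hes5* is at -1.53 in radial glia or astrocytes and at 0.21 in glutamatergic neurons.

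The difference between these classes was tested in itself, as the change within each library from glutamatergic neurons to radial glia or astrocytes, over 7 of the 10 genes. *Hes5*, *Notch1* and *Hes1* were called, with changes that were lower in radial glia or astrocytes by 1.74 ± 0.16 (adjusted p = 5.31e-09), 0.76 ± 0.12 (adjusted p = 6.6e-05) and 0.68 ± 0.13 (adjusted p = 0.000846) on the log2 scale, against 10.0% of 7947 genes called. In glutamatergic neurons *Notch1* and *Hes1*, at no more than 0.0522 and 0.0931 in the compared WT libraries, passed the filter only through KO4 and KO5, so the count of 3 is no support in itself, whereas *Hes5* passed in WT too. Without KO4 or KO5, *Notch1* and *Hes1* fell under the filter, and *Hes5* stayed called. For *Notch2* the estimate was 0.09 ± 0.16 (adjusted p = 0.787), so a difference of its rise was not detected on the log2(level + 1) scale. As a ratio its rise was larger in glutamatergic neurons, from at most 0.0851 to 0.676 and 0.794. In radial glia or astrocytes it went from between 0.969 and 2.37 to 3.56 and 3.36. Like *Notch1* and *Hes1*, *Notch2* and *Jag1* passed the filter in glutamatergic neurons only through KO4 and KO5. *Jag1* (-0.19), *Hes6* (0.04) and *Mfng* (-0.04) were not called. Of 23 other pathway genes, *Nrarp* (-0.62, adjusted p = 0.000928) and *Maml2* (-0.37, adjusted p = 0.00961), the latter let in by its KO values, were called.

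The ratio of the level in radial glia or astrocytes to that in glutamatergic neurons was also read per library, without the 1 added to each level. For *Hes5* it was 43.3, 36.2 and 45.8 in WT2, WT3 and WT4, 5.1 in KO4, 2.8 in KO5 and 3.0 in WT5. The ratio of the 13 radial glia or astrocyte markers summed moved alike, from 23.7, 35.7 and 21.9 to 4.4, 3.3 and 3.0. For *Notch2* the ratio went from 38.0, 27.8 and 17.7 to 5.3, 4.2 and 4.6. For *Notch1* it went from 40.8, 35.0 and 23.3 to 3.75, 1.57 and 3.21. The contrast between the classes was thus lower in KO4, KO5 and WT5 for these genes and for the markers, whose part in it was not tested beyond the marker scale given above. The libraries overlapped for *Hes6*, with ratios of 0.914, 1.13 and 1.16 against 1.19, 1.05 and 0.958, and for *Mfng*, with 1.12, 1.95 and 2.17 against 1.25, 1.58 and 1.81.

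The classes that supplied the UMIs differed between the compared WT and KO libraries, and WT5 was with the KO libraries. In WT2, WT3 and WT4 together, with 462 radial glia or astrocytes and 4563 glutamatergic neurons, 53.3% of all *Hes5* UMIs were counted in radial glia or astrocytes, and in KO4 and KO5, with 209 and 4382, 53.2% were counted in glutamatergic neurons. Glutamatergic neurons also gave 46.0% of the *Notch2* UMIs of KO4 and KO5, against 6 of 60, 29 of 228 and 84 of 405 in WT2, WT3 and WT4. In WT5 they gave 156 of 233 *Hes5* UMIs and 398 of 662 *Notch2* UMIs. They made up 4382 of the 6502 kept cells of KO4 and KO5, so 53.2% and 46.0% were below their share of cells. Receptor-only cells followed, at 0.988%, 1.91% and 1.73% of glutamatergic neurons in WT2, WT3 and WT4 against 11.9% and 14.4% in KO4 and KO5, and 11.3% in WT5. In radial glia or astrocytes receptor-only cells were 23.2%, 32.1% and 27.9% against 33.3% and 35.0%, and in cycling Dlx-negative cells they were 16.7%, 25.0% and 15.7% against 31.3% and 29.7%.

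**Figure D5:**
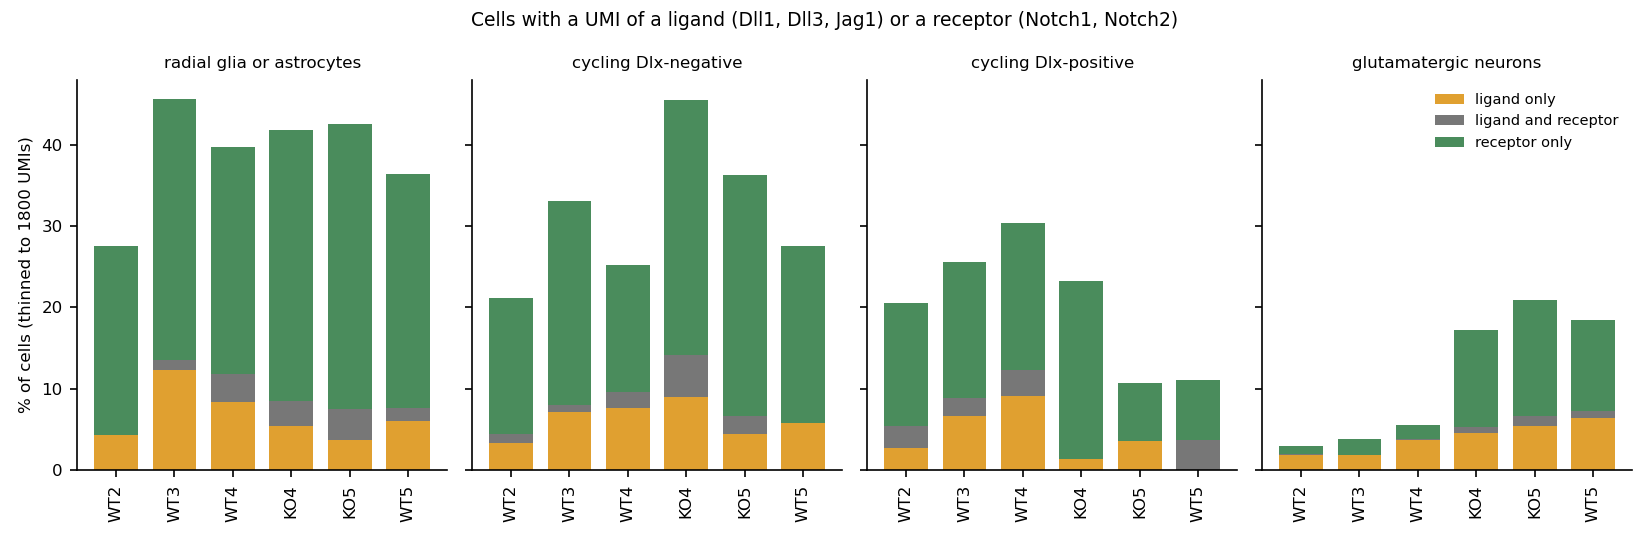
Percentage of thinned cells (y axis) with a UMI of a ligand only, a receptor only or both, per library (x axis) in 4 classes; ligands are *Dll1*, *Dll3* and *Jag1*, receptors *Notch1* and *Notch2*. In glutamatergic neurons the receptor-only part is at most 1.91% in WT2, WT3 and WT4 and at least 11.3% in KO4, KO5 and WT5.

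Shares of cells were compared as well, with libraries as the units. Over all kept cells 7 of the 10 genes had shares that did not overlap between the compared WT and KO libraries, against 49.9% of all genes tested. In radial glia or astrocytes 5 of 9 did, against 34.4%, and in glutamatergic neurons 6 of 8 did, against 45.8%. Only genes that passed the filter on levels were counted. *Notch2*, *Jag1*, *Notch1* and *Hes1* in glutamatergic neurons, and *Jag1* over all kept cells, passed it only through KO4 and KO5. That favours a lack of overlap, so the counts in these 2 settings are no support in themselves. With 3 against 2 libraries an exact permutation test cannot go below p = 0.1, which *Hes5* in radial glia or astrocytes and *Notch2* in all 3 settings reached.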

How the data were processed

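Single-cell RNA-seq libraries of 9 embryonic neocortices were used. Per the study's methods and the submitters' processing notes, the authors aligned reads to mm10 (GRCm38) with Cell Ranger (2.1.0 in the notes) and filtered cells in Seurat 2.3.4 under R 3.6.0. For WT4, WT5, KO4 and KO5 the files deposited by the authors hold raw UMI counts. The files deposited for the other 5 libraries hold natural log values of 1 plus UMIs per 10000, from which whole UMIs were recovered for 100% of values.

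Cells with 1000 to 5000 genes, 1800 to 10000 UMIs and at most 6% mitochondrial UMIs were kept, without those above 1% haemoglobin. A cell with UMIs of at least 3 of 8 cycling genes was called cycling, and any other cell took the class with the most gate markers, at least 3 of its 8. No doublet caller was run, and cells that also met a second gate were left out as an alternative. Libraries shared at most 46 cell barcodes, at most 2.5% of the smaller library.

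The main test was limma 3.58.1 (limma-trend, robust) in R 4.3.3 on log2(mean UMIs per 10000 + 1) per library, over genes at 0.1 or more in at least 2 libraries, with Benjamini-Hochberg adjustment over all genes tested and calls below 0.05. The library of 1 embryo was the replicate, and nothing else is known of how embryos were spread over litters. Alternatives used the recovered UMIs in edgeR 4.0.16 and in DESeq2 1.42.0. Intermediate progenitors and GABAergic neurons were not tested because KO5 held 7 and 3 cells of them, and the cycling comparisons were added after the numbers of cells were seen. On simulated data limma recovered 30.5% of 200 genes changed by 1 log2 unit and 89.5% of those changed by 2 in radial glia or astrocytes, and 93% and 100% over all kept cells. That recovery was not broken down by the level of the gene. With 1 added before the log2, a change shrinks for genes far below 1 UMI per 10000. A gene without a call is thus not shown to be unchanged. Shares were compared by exact permutation of libraries. Binomial intervals and limits for counts of 0 cover counting error only. Python 3.11.15 was used for levels.

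The 10 genes, the pathway list and the marker lists were chosen with earlier results of these data known. All 10 genes are named in every comparison, and other pathway genes where they were called. *Tcf4* is named as the check of the labels, and it overlapped between the compared libraries in radial glia or astrocytes. For each of the 10 the 2 most alike genes are named. Gene coordinates are GENCODE positions on GRCm38, and the genes were counted by the authors with another annotation of that build. Counts are from the 3′ end, and reads of overlapping genes cannot be told apart here.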

Additional observations from a re-analysis of the deposited data

Results flagged for a closer look

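Over all kept cells 20 groups of values, the 10 genes in the 5 WT and in the 4 KO libraries as labelled, were searched for a library that stood apart from the rest of its group. Such a search flags about 1 group in 20 by chance, and 4 libraries were found. *Notch2* was at 3.01 UMIs per 10000 in the library labelled WT1, where the other WT libraries ran from 0.133 to 0.759. *Notch2* was at 3.52 in KO2, where the other KO libraries ran from 0.832 to 0.986. *Jag1* was at 0.675 in the library labelled WT1, with the other WT libraries at 0.0671 to 0.202. *Hes1* was at 0.443 in WT2, with the others at 0.122 to 0.195. WT1 and KO2 held 126 and 118 kept cells and were in no comparison of genotypes.

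The change from WT2, WT3 and WT4 to KO4 and KO5 differed between radial glia or astrocytes and glutamatergic neurons for 3 of the genes by a test of the difference itself (limma). It was -1.74 for *Hes5*, -0.76 for *Notch1* and -0.68 for *Hes1* on the log2(level + 1) scale. *Notch1* and *Hes1* passed the filter in glutamatergic neurons only through KO4 and KO5, so the number of genes is no support in itself. The summed markers of radial glia or astrocytes moved in the same directions in these classes, lower in radial glia or astrocytes and higher in glutamatergic neurons of KO4 and KO5.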

How the results depend on the processing

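Of 758 recomputed values for 52 gene results, 578 kept their direction and side of the threshold, 93 lost a call and 21 gained one. Of the called results 1 reversed, *Hes1* in radial glia or astrocytes, to 0.26 relative to the 13 markers, a scale chosen after the data were seen, and the cause was not tested. A further 65 values, called in neither setting, changed sign, 8 of them on that scale, such as *Jag1* in radial glia or astrocytes, to 1.5. Adding WT5 as labelled left 0 genes and 0 of the 10 called by limma over all kept cells and in the 4 classes (479 and 983 genes at an unadjusted p under 0.05 in cycling Dlx-negative and Dlx-positive cells, the others given above). Over all kept cells this also held with all 9 libraries, with the replicate block and without the block over the same 8 libraries (0 genes and 0 of the 10 by limma, with 295, 198 and 145 genes at an unadjusted p under 0.05). The replicate numbers did not pair the samples, with correlations of same-numbered WT and KO libraries from -0.0158 to 0.534, and not every library correlated best with its own number.

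Without a filter on low genes the numbers of genes called, and of the 10, were 36 and 0 over all kept cells, 89 and 1 in radial glia or astrocytes, 115 and 1 in cycling Dlx-negative cells, 0 and 0 in cycling Dlx-positive cells (2239 at an unadjusted p under 0.05) and 156 and 2 in glutamatergic neurons. DESeq2 gave 330 and 2, 272 and 2, 188 and 1, 277 and 0, and 461 genes in the same order. In cycling Dlx-negative cells edgeR gave 356 (TMM) and 369 (RLE) genes and 1 of the 10, thinned cells 345 and 1, a gate of 2 markers 318 and a gate of 4 markers 352 genes. Thinned cells gave 2 of the 10 over all kept cells, 1 in cycling Dlx-positive cells and 529 genes for the difference between classes, and keeping haemoglobin-rich cells gave 2 of the 10. A gate of 4 markers gave 3 and leaving out cells of a second class 2 of the 10 in radial glia or astrocytes, and the latter gave 493 genes and 1 of the 10 in cycling Dlx-positive cells.

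Leaving out 1 library gave 0 (without WT2, by limma, with 1767 at an unadjusted p under 0.05) to 1394 genes (without WT4) and 0 to 4 of the 10 over all kept cells, 310 (KO5) to 772 (WT4) and 2 to 5 in radial glia or astrocytes, 135 (KO5) to 1032 (WT4) and 1 to 4 in cycling Dlx-negative cells, 326 (WT3) to 1309 (KO4) and 0 to 2 in cycling Dlx-positive cells, 54 (KO5) to 1098 (WT4) and 0 to 5 in glutamatergic neurons, and 279 (KO5) to 797 (WT2) and 1 to 3 for the difference between classes. The numbers of the 10 with shares that did not overlap ran from 7 to 9 over all kept cells, 5 to 8 in radial glia or astrocytes and 6 to 7 in glutamatergic neurons. Depth limits the KO values of *Hey1*, *Dll1* and *Notch1* in radial glia or astrocytes, which rest on 1 to 16 UMIs.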

Other observations

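Intermediate progenitors, the class with the highest *Hes6* and nearly the highest *Mfng*, held 34 cells in KO4 and 7 in KO5, too few for a test. *Hes6*, the antagonist of *Hes1*, was at 3.69, 3.87 and 3.86 UMIs per 10000 in WT2, WT3 and WT4 and at 1.79 in KO4, and no UMI of it was counted in the 7 cells of KO5, which allows a share of up to 42.9%. *Mfng* was at 1.52, 1.82 and 1.29 in the WT libraries and at 0.345 in KO4, from 5 UMIs. *Notch2* was at 0.0794, 0.267 and 0.0799 in the WT libraries, at 1.94 in KO4 from 25 UMIs and at 3.75 in KO5 from 8 UMIs. The KO values of *Hes6* and *Mfng* lay below and those of *Notch2* above every compared WT library in these few cells.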
